A study of Homo sapiens with 12 samples.

Results

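The STEAP genes encode metalloreductases of the cell surface and endosome, and 5 of them were looked up by symbol among the 58381 genes of the count files: STEAP1, STEAP1B, STEAP2, STEAP3 and STEAP4. All 5 had a row in the files, and 4 had enough fragments to be among the 19162 genes tested, STEAP1B being the exception. Expression was measured by RNA sequencing in 2 long-term cultured lines derived from VCaP, an androgen-sensitive human prostate cancer cell line. VCaP-CT is a subclone grown from VCaP-T over 10 months at 0.1 nM testosterone (T), and VCaP-T is a subclone grown from VCaP over 7 months at 10 nM T. Both were kept in medium with charcoal-stripped serum, which holds little steroid of its own. There were 4 groups of 3 libraries each. Rechallenged VCaP-CT had been moved to 10 nM T for 48 h, standing VCaP-CT stayed in its usual 0.1 nM T, depleted VCaP-T had been moved to 0.1 nM T for 48 h, and standing VCaP-T stayed in its usual 10 nM T, with VCaP-CT at passage 73 and VCaP-T at passage 84. Each line is a single subclone, so a difference between the lines is a difference between these 2 cultures. Whether the 3 libraries of a group are separate cultures is not given in the labels, and the p-values cover only the spread among them, which may be technical.

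A STEAP protein has a membrane part that holds heme and, in STEAP2, STEAP3 and STEAP4, a part in the cytoplasm that takes electrons from NADPH and passes them across the membrane to ferric iron or cupric copper. STEAP1 lacks the NADPH-binding part and is best known as a surface antigen of prostate cancer. The reduced metal can then be carried across the membrane by transporters of ferrous iron or by the copper importer. Androgens such as testosterone change the expression of many genes in prostate cells.

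The libraries held 30174831 to 40825204 counted fragments, and levels are given as normalized counts, which are fragment counts scaled to a common effective library size. The 8 luminal prostate markers were all tested, and their summed normalized counts were 470133 to 493570 in rechallenged VCaP-CT, 331497 to 335586 in standing VCaP-CT, 316128 to 347274 in depleted VCaP-T and 505743 to 516582 in standing VCaP-T. The highest of these markers was KLK2, and KLK3 and TMPRSS2, used below as androgen-induced references, were among them. This sum is therefore not independent of the hormone. Sums of blood and fat cell markers did not exceed 29.3 and 1.89 normalized counts in any library, and KDR, HBB and ADIPOQ had no fragment at all. The sum of 3 hepatocyte markers, mainly ALB, was 590 to 640, 2297 to 2420, 1420 to 1983 and 350 to 375 normalized counts in the same order of groups, highest where STEAP4 was lowest. The sum of 5 endothelial markers, mainly VWF, was 473 to 503, 299 to 318, 517 to 559 and 517 to 564, and that of 6 fibroblast and smooth muscle markers, mainly COL1A1, was 38.4 to 61.5, 72.7 to 89.0, 353 to 486 and 205 to 277. The part of these markers in the STEAP results was not tested. Replicate 2 of depleted VCaP-T stood apart, with correlations across genes of 0.9653 and 0.9695 to its own replicates, against at least 0.9933 within every other pair of replicates. In that library genes with short exon models read high and genes with long ones low: the median log2 difference from replicates 1 and 3 was 0.28 for genes of up to 2000 exon bases and -0.52 for genes over 8000. Several results below are given with and without that library.

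STEAP4 was the member that passed the test with testosterone in both lines, lower after its withdrawal and higher after its return. STEAP4 (ENSG00000127954.12) is also known as STAMP2, and it reduces iron and copper and was first described in mouse fat cells and in prostate tissue. Its Gencode model spans chr7:88270892-88306891 on the minus strand of GRCh38 and has 11245 exon bases. It is shown with the 250 bases before its RefSeq start, at chr7:88306895-88307144 (GRCh38.p14), since it is the member called in both comparisons of testosterone, and no Gencode exon of the count model lies in them. The capitals mark a match to the SP1 motif.
STEAP4 promoter: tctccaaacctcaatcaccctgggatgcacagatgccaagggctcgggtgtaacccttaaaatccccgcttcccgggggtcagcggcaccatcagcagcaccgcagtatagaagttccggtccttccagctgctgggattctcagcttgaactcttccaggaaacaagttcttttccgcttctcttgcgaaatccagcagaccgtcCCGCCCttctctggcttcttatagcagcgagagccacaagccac

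STEAP4 had 6657, 7012 and 6148 normalized counts in rechallenged VCaP-CT and 166, 134 and 142 in standing VCaP-CT. It had 600, 430 and 569 in depleted VCaP-T and 4455, 4605 and 4694 in standing VCaP-T. No 2 groups overlapped, and both groups at 10 nM T lay far above both groups at 0.1 nM T. Groups did not overlap for 38.0% of all genes tested after withdrawal, 55.7% after return, 69.0% between the standing cultures, 52.3% between the lines at 0.1 nM T and 61.7% between the lines at 10 nM T, so a lack of overlap alone was common. As a share of the mean in standing VCaP-T, STEAP4 stood at 144% in rechallenged VCaP-CT, 3.22% in standing VCaP-CT and 11.6% in depleted VCaP-T. In a bulk sample, fewer expressing cells and less RNA per cell cannot be told apart.

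The first comparison asked which genes follow the hormone in VCaP-T, by withdrawing testosterone for 48 h. STEAP4 fell by 3.10 on the log2 scale in depleted VCaP-T relative to standing VCaP-T (SE 0.13, 95% interval -3.37 to -2.83, edgeR adjusted p = 8.41e-08), an 8.58-fold lower level. Among all genes that were lower at 0.1 nM T it had the smallest p and the 7th largest fall. A gene passed with an adjusted p below 0.01, and it was called if, besides, its log2 fold change exceeded 1 in either direction and the group medians lay more than 13 normalized counts apart. Of the genes tested 3.83% passed as lower and 6.15% as higher, and 0.678% were called lower and 2.46% higher in depleted VCaP-T, and STEAP4 was the 1 member called. Without the library that stood apart, its log2 fold change was -2.97.

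The second comparison returned VCaP-CT to 10 nM T for 48 h. STEAP4 rose by 5.48 on the log2 scale in rechallenged VCaP-CT relative to standing VCaP-CT (SE 0.14, 95% interval 5.17 to 5.79, edgeR adjusted p = 1.37e-09), a 44.7-fold higher level. It had the smallest p of all genes that were higher at 10 nM T and the 5th largest rise. Of all genes tested, 7.07% passed as higher and 7.19% as lower, and 1.83% were called higher and 3.30% lower, and STEAP4 was again the 1 member called.

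**Figure D1:**
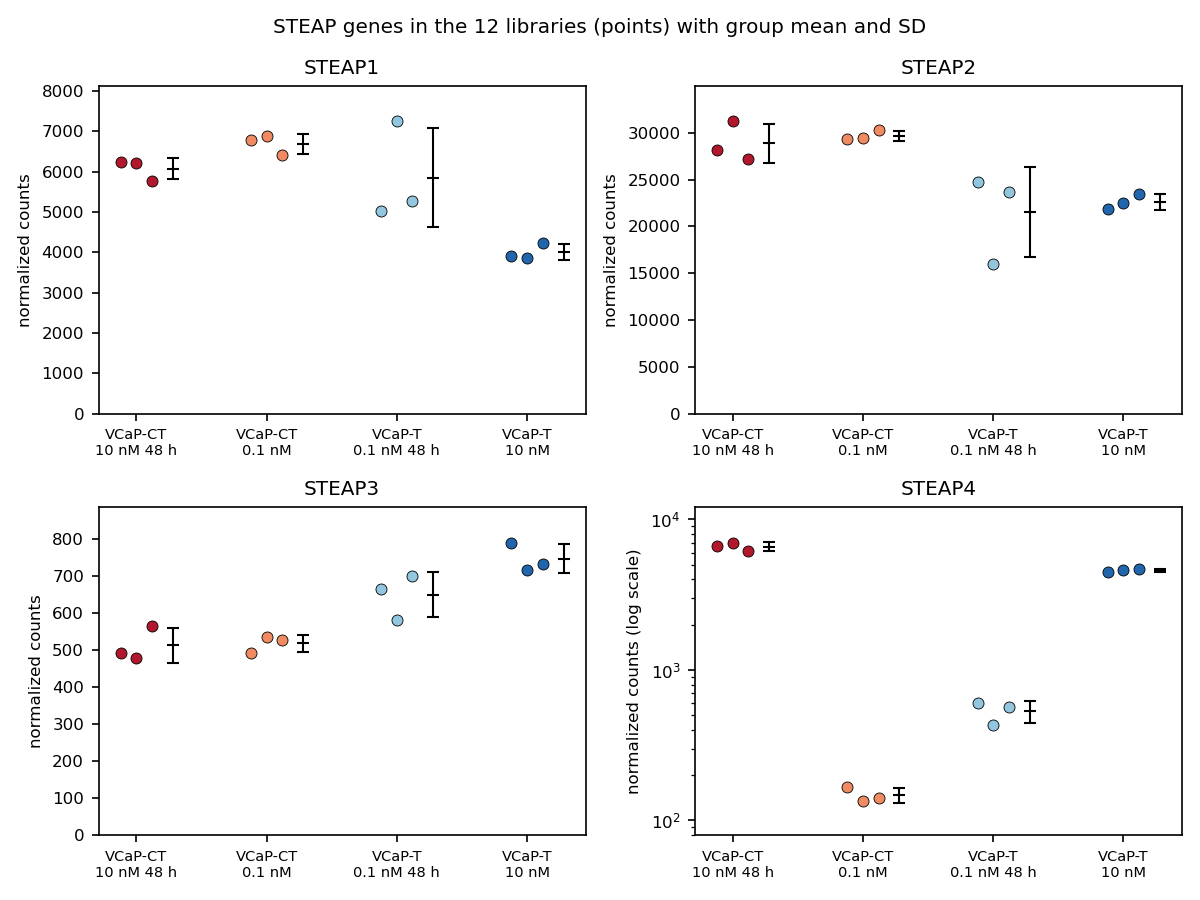
Normalized counts of STEAP1, STEAP2, STEAP3 and STEAP4 (y axis, log scale for STEAP4 only) in the 3 libraries of each of the 4 groups (x axis), with the group mean and SD beside the points. STEAP4 separates the groups at 10 nM T (4455 to 7012) from those at 0.1 nM T (134 to 600), and the low STEAP2 point and the high STEAP1 point of depleted VCaP-T are the same library.

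The size of the STEAP4 response to 10 nM over 0.1 nM T differed between the lines. The response was larger by 2.38 on the log2 scale in VCaP-CT than in VCaP-T (SE 0.17, 95% interval 2.01 to 2.76, edgeR adjusted p = 2.93e-05), with the same sign in both. For this difference 0.804% of the genes tested passed as higher and 0.162% as lower, and 0.449% were called higher and 0.115% lower, without the condition on medians, and STEAP4 was among those called higher. The exposures are not matched in time, because 10 nM T lasted 48 h in VCaP-CT but was the standing condition of VCaP-T, and the reverse holds at 0.1 nM T.

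Between the lines, STEAP4 differed more at 0.1 nM T than at 10 nM T, by the fitted values. At 0.1 nM T, STEAP4 was 3.61-fold lower in VCaP-CT than in VCaP-T (log2 fold change -1.85, SE 0.13, edgeR adjusted p = 3.61e-07), and 8.68% of all genes were called lower and 3.62% higher there. At 10 nM T, STEAP4 was higher in VCaP-CT than in VCaP-T by 0.53 (SE 0.11, 95% interval 0.28 to 0.78, edgeR adjusted p = 0.00315), which passed the p threshold but not the one on fold change. Of all genes tested, 3.17% were called higher and 7.08% lower at 10 nM T. That difference was 0.42 (adjusted p = 0.0279) when counts were scaled by library size alone, and with each library of standing VCaP-T, or replicate 1 or 2 of rechallenged VCaP-CT, left out in turn it was 0.48 to 0.55 (adjusted p 0.0106 to 0.0172). In standing VCaP-CT relative to standing VCaP-T, STEAP4 was 31-fold lower (log2 fold change -4.95, SE 0.14, adjusted p = 2.12e-10), and 7.06% of all genes were called lower and 5.61% higher.

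The 3 androgen-induced reference genes moved with testosterone in the same directions as STEAP4. KLK3, which encodes prostate-specific antigen, had log2 fold changes of -0.95 after withdrawal in VCaP-T (adjusted p = 9.31e-05) and 3.13 after return in VCaP-CT (adjusted p = 8.17e-09), and its response was larger in VCaP-CT by 2.19 (SE 0.15, adjusted p = 2.08e-05). TMPRSS2, a membrane serine protease, had -1.25 and 1.87 (adjusted p = 3.19e-07 and 7.52e-09), with a response larger by 0.62 in VCaP-CT (SE 0.09, adjusted p = 0.00343). FKBP5, a cochaperone of steroid receptors, had -1.68 and 2.47 (adjusted p = 1.56e-06 and 5.13e-08), and the difference between its responses, 0.79, did not pass (adjusted p = 0.0176). STEAP4 thus had a larger log2 fold change than each of the 3 in both comparisons, by the fitted values, and these differences were not tested. At 10 nM T, KLK3 was lower in VCaP-CT than in VCaP-T (log2 fold change -2.43, adjusted p = 1.26e-08), where STEAP4 was higher. In the same comparison FKBP5 was higher, like STEAP4 (0.59, adjusted p = 0.000943), and TMPRSS2 did not pass (-0.05, adjusted p = 0.592).

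The genes most like STEAP4 across the 12 libraries were sought among 13732 genes with a mean of at least 50 normalized counts, by the root mean square difference between centred log2 profiles. They were C22orf42 (0.70), SLC2A3 (0.87) and ORM2 (0.88), of which SLC2A3 encodes a glucose transporter and ORM2 an acute-phase plasma protein. C22orf42 averaged 143 ± 16.4 normalized counts in rechallenged VCaP-CT, 3.36 ± 1.20 in standing VCaP-CT, 38.0 ± 8.18 in depleted VCaP-T and 148 ± 6.31 in standing VCaP-T (SD, n = 3 each). SLC2A3 averaged 457 ± 14.6, 44.9 ± 4.46, 68.0 ± 4.74 and 365 ± 25.9 in the same order of groups. Like STEAP4, each of the 3 was at its lowest in standing VCaP-CT. They were chosen for this likeness, so their fold changes are no separate evidence.

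STEAP1 had a different pattern, in which the low group was standing VCaP-T. STEAP1 (ENSG00000164647.8) lies at chr7:90154375-90164829 on the plus strand, with 1625 exon bases, and STEAP1B (ENSG00000105889.14), its close relative, lies elsewhere on the chromosome at chr7:22419444-22632925 on the minus strand, with 2316. Of the 75-base stretches in the exons, 14.4% of those of STEAP1 and 9.86% of those of STEAP1B occur in the other gene. Fragments that map to several places were left out of the counts, so the counts of both genes are uncertain. The reads are paired, so these shares do not give the part of the fragments lost, which was not tested. The 300 bases around the RefSeq starts of STEAP1 and STEAP1B were 96.7% identical, with 10 differing bases. STEAP1 is shown with the bases before its first exon, at chr7:90154219-90154374 (GRCh38.p14), with the 3 bases that differ in STEAP1B in capitals. A stretch of 30 bases is then set beside its counterpart at chr7:22500354-22500383 on the minus strand to show how close the copies are. That counterpart overlaps a Gencode exon. The RefSeq start used for STEAP1B lies inside its Gencode model, not at the start of the model.
STEAP1 promoter: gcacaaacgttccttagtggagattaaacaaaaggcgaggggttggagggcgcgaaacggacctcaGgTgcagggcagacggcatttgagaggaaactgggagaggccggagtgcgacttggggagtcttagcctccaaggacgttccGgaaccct
STEAP1 stretch: aacggacctcaGgTgcagggcagacggcat
STEAP1B stretch: aacggacctcaAgGgcagggcagacggcat

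STEAP1 had 6238, 6225 and 5765 normalized counts in rechallenged VCaP-CT and 6777, 6872 and 6402 in standing VCaP-CT. It had 5018, 7252 and 5265 in depleted VCaP-T and 3911, 3854 and 4221 in standing VCaP-T. All 9 libraries of the other groups lay above the 3 of standing VCaP-T. Groups did not overlap for 38.0% of all genes after withdrawal, 69.0% between the standing cultures and 61.7% between the lines at 10 nM T. STEAP1 was higher in depleted VCaP-T than in standing VCaP-T by 0.55 on the log2 scale (SE 0.12, 95% interval 0.29 to 0.81, edgeR adjusted p = 0.00762), the opposite direction to STEAP4, and 6.15% of all genes tested passed the p threshold in that direction. The highest value, 7252, came from the library that stood apart. Without that library the difference was 0.36 (adjusted p = 2.37e-05), in a fit where 14.4% of all genes passed as higher. With the other libraries left out in turn the adjusted p was 0.00329 to 0.0396, under the threshold without replicate 1 or 3 of depleted VCaP-T and over it without each library of the other groups, and in a fit of the 6 VCaP-T libraries alone it was 0.103.

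In VCaP-CT, STEAP1 did not pass the test after the return to 10 nM T (log2 fold change -0.14, 95% interval -0.40 to 0.12, adjusted p = 0.457). Its 3 libraries at 10 nM T all lay below the 3 at 0.1 nM T, and groups did not overlap there for 55.7% of all genes. The difference between the 2 lines in the response of STEAP1 was 0.41 (95% interval 0.04 to 0.78, adjusted p = 0.261), or 0.225 (adjusted p = 0.039) without the library that stood apart, and did not pass. STEAP1 was higher in standing VCaP-CT than in standing VCaP-T by 0.74 (SE 0.12, adjusted p = 0.00035), and 14.8% of all genes passed as higher there. At 10 nM T it was higher in VCaP-CT than in VCaP-T by 0.60 (SE 0.12, adjusted p = 0.00182), where 12.0% of all genes passed as higher, and the adjusted p was 0.0106 or 0.0116 with replicate 1 or 2 of standing VCaP-T left out. At 0.1 nM T the lines differed by 0.19 (95% interval -0.07 to 0.46, adjusted p = 0.215). Without the library that stood apart they differed by 0.38 (adjusted p = 5.01e-06), in a fit where 23.2% of all genes passed as higher.

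STEAP1B was near or at 0 throughout, and no change could be detected at this depth. Its counts were 0, 0 and 2 fragments in rechallenged VCaP-CT, 5, 4 and 1 in standing VCaP-CT, 1, 1 and 2 in depleted VCaP-T and 1, 0 and 0 in standing VCaP-T. A count of 0 in a library allows up to 3 fragments, counting error only, so these values do not separate the groups.

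STEAP2 read higher in every VCaP-CT library than in every VCaP-T library, a difference that missed the threshold in the edgeR model of all 12 libraries, and no change with the hormone passed. STEAP2 (ENSG00000157214.13), also known as STAMP1, encodes an iron and copper reductase of the Golgi and cell surface that is abundant in prostate. Its Gencode model spans chr7:90167590-90238137 on the plus strand with 8715 exon bases, and it begins 2.76 kb downstream of the end of STEAP1. STEAP2 had 28190, 31248 and 27217 normalized counts in rechallenged VCaP-CT and 29332, 29434 and 30262 in standing VCaP-CT. It had 24790, 16018 and 23723 in depleted VCaP-T and 21872, 22482 and 23482 in standing VCaP-T. Within each line the groups overlapped, and between the lines no library did. Such a lack of overlap was common, at 69.0% of all genes between the standing cultures, 52.3% at 0.1 nM T and 61.7% at 10 nM T.

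STEAP2 did not pass the test after withdrawal (log2 fold change -0.07, 95% interval -0.37 to 0.22, adjusted p = 0.732) or after return (log2 fold change -0.04, 95% interval -0.33 to 0.25, adjusted p = 0.872). The intervals leave room for changes of up to 0.37 in size on the log2 scale. The value 16018 came from the library that stood apart, whose STEAP2 level was 0.60 lower on the log2 scale than in the other 2 libraries of its group, and without it the withdrawal value was 0.10 (adjusted p = 0.135), the opposite sign. The differences between the lines were 0.39 between the standing cultures (SE 0.13, adjusted p = 0.033), 0.46 at 0.1 nM T (SE 0.13, adjusted p = 0.0151) and 0.35 at 10 nM T (SE 0.13, adjusted p = 0.0574), none past the threshold. Without that library they were 0.39, 0.29 and 0.36 and all passed the p threshold (adjusted p = 4.38e-07, 7.25e-05 and 1.95e-06), in a fit where 26.7%, 23.2% and 24.7% of all genes passed as higher. At 0.1 nM T, STEAP2 also passed with that library kept, with DESeq2 (0.47, adjusted p = 0.0051), with no low-count filter (0.48, adjusted p = 0.0026) and without replicate 1 of depleted VCaP-T (0.58, adjusted p = 0.00545).

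STEAP3 read lower in every VCaP-CT library than in every VCaP-T library and passed the test in 2 of the 3 comparisons between the lines, and it did not pass with the hormone. STEAP3 (ENSG00000115107.19) encodes the main ferric reductase of the transferrin cycle endosome in red cell precursors, a role known best from mouse. It lies at chr2:119223831-119265652 on the plus strand with 4562 exon bases, of which 500 overlap STEAP3-AS1 on the other strand. Strand was not used in counting, so reads of both genes cannot be told apart there, and STEAP3-AS1 had a mean of 9.67 fragments over the 12 libraries and passed neither test with the hormone (log2 fold changes -0.37 and 0.16, adjusted p = 0.641 and 0.857). STEAP3 had 491, 478 and 566 normalized counts in rechallenged VCaP-CT and 492, 535 and 526 in standing VCaP-CT. It had 664, 582 and 700 in depleted VCaP-T and 790, 715 and 732 in standing VCaP-T. Within VCaP-CT the groups overlapped, and in VCaP-T all 3 depleted libraries lay below the 3 standing ones. After withdrawal 38.0% of all genes had groups without overlap. Between the lines these were 69.0% (standing cultures), 52.3% (0.1 nM T) and 61.7% (10 nM T).

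STEAP3 was lower in VCaP-CT than in VCaP-T between the standing cultures (log2 fold change -0.53, SE 0.10, edgeR adjusted p = 0.000942) and at 10 nM T (log2 fold change -0.54, SE 0.10, adjusted p = 0.000957). These were falls of 1.44-fold and 1.46-fold, short of the fold threshold, and 15.7% and 13.2% of all genes passed as lower in the 2 comparisons. At 0.1 nM T the log2 fold change of STEAP3 was -0.33 (SE 0.10, adjusted p = 0.0179). Without the library that stood apart STEAP3 had -0.40 (adjusted p = 0.00032), in a fit where 24.4% of all genes passed as lower. Within the lines it did not pass, with -0.20 after withdrawal (95% interval -0.41 to 0.01, adjusted p = 0.165, or -0.13 and adjusted p = 0.208 without that library) and -0.02 after return (95% interval -0.23 to 0.20, adjusted p = 0.932).

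**Figure D2:**
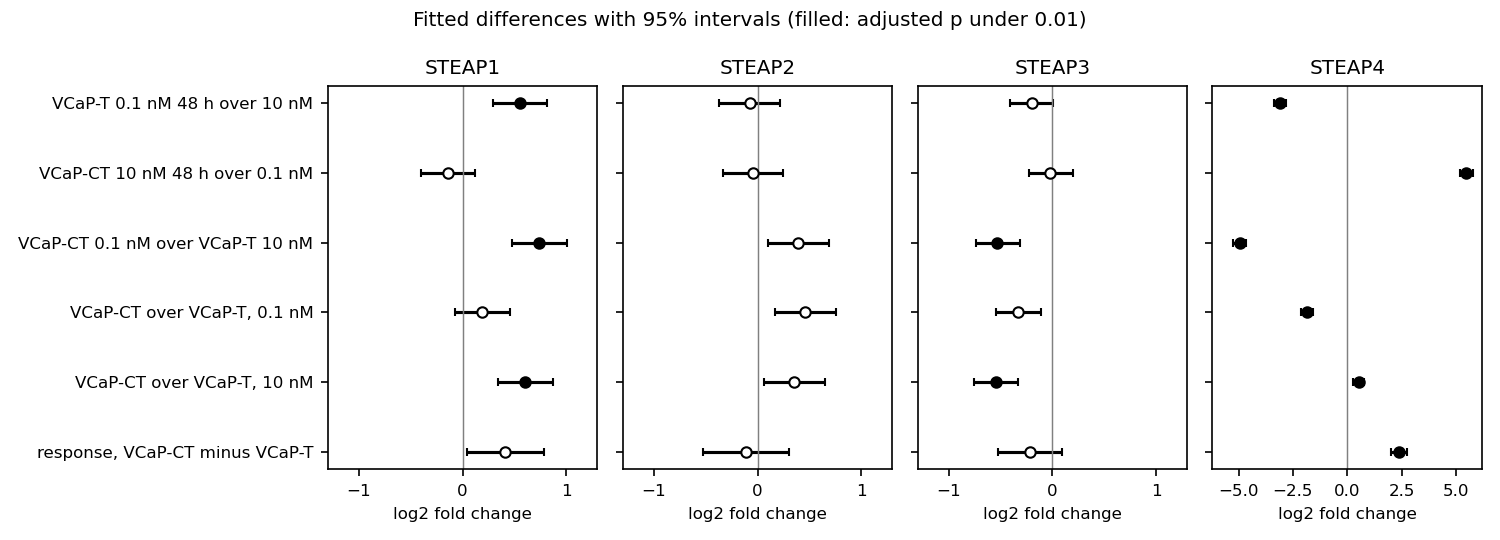
Fitted log2 fold changes (x axis, wider scale for STEAP4) of the 4 tested STEAP genes in 5 comparisons and in the difference between the responses of the lines (rows), with 95% intervals; filled points have an adjusted p below 0.01. STEAP4 is filled in every row, at -3.10 and 5.48 in the first pair, while STEAP2 is open in every row.

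Levels of different members can be set beside each other only per length. FPKM, in which fragments are scaled to exon length and library size, was used for that. Exon length here counts all Gencode exon bases of a gene, which can differ from the length of the transcripts expressed. The order and the shares of the members below depend on that choice. STEAP1 averaged 106 ± 4.70 FPKM in rechallenged VCaP-CT, 117 ± 4.34 in standing VCaP-CT, 102 ± 21.4 in depleted VCaP-T and 69.8 ± 3.45 in standing VCaP-T (SD, n = 3 each). STEAP2 averaged 94.1 ± 6.85, 96.6 ± 1.66, 70.0 ± 15.6 and 73.6 ± 2.65 FPKM in the same order of groups. Both lay above at least 96.8% of the tested genes in every group, and in standing VCaP-T their order was STEAP2 above STEAP1, by less than the sum of their SDs. STEAP3 averaged 3.18 ± 0.297, 3.22 ± 0.140, 4.04 ± 0.379 and 4.64 ± 0.244 FPKM.

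STEAP4 averaged 16.7 ± 1.10, 0.372 ± 0.0415, 1.35 ± 0.229 and 11.6 ± 0.305 FPKM in the same order of groups. Counted from the highest of the 19162 tested genes, it ranked 2934 in rechallenged VCaP-CT, 15326 in standing VCaP-CT, 11848 in depleted VCaP-T and 3887 in standing VCaP-T. It was therefore above STEAP3 per length in both groups at 10 nM T and below it in both groups at 0.1 nM T. Of the summed per-length signal of the 5 genes, STEAP4 took 7.57% ± 0.111 in rechallenged VCaP-CT, 0.172% ± 0.0194 in standing VCaP-CT, 0.761% ± 0.149 in depleted VCaP-T and 7.25% ± 0.158 in standing VCaP-T. STEAP1 and STEAP2 together made up nearly all the rest, and STEAP1 took 57.3% ± 10.2 in depleted VCaP-T, with 69.0% in the library that stood apart, against 43.7% ± 0.649 in standing VCaP-T.

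**Figure D3:**
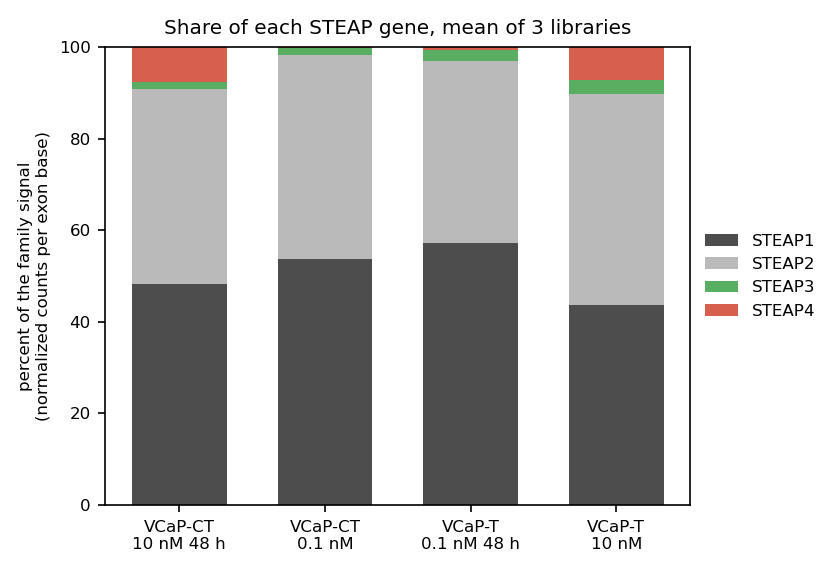
Percent of the summed STEAP signal per exon base (y axis) that each gene took in the 4 groups (x axis), as the mean of 3 libraries; STEAP1B, at most 0.017%, is too small to see. The STEAP4 share is 7.57% and 7.25% in the groups at 10 nM T and below 1% in the groups at 0.1 nM T.

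Matches to 3 motifs are given for the promoters of the members, on both strands, in the 300 bases from 250 before to 50 after each RefSeq start (GRCh38.p14), among 35116 promoters. The FOXA motif (TGTTTAC or TGTTTGC and their complements) was in 7.17% of promoters and, of the STEAP windows, in that of the second STEAP2 start. The SP1 motif (GGGCGG) was in 45.0% of promoters, with 2 matches for STEAP4, 3 for STEAP3 and 1 for the first STEAP2 start, and CCAAT was in 34.6%, with 2 matches for the second STEAP2 start. No match says only that these letters are absent from these windows. The windows of STEAP1B and STEAP2 lie inside the Gencode models given above, not at the starts of those models.

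The genes around STEAP4 were read to see which of them moved with it. Of 18 genes within 500 kb of STEAP4, 6 were tested. After withdrawal 3 of these passed as lower and none as higher, against 3.83% and 6.15% of all genes. After return 2 passed as higher and 2 as lower, against 7.07% and 7.19%. Without the library that stood apart, 3 and 3 passed after return, against 19.0% and 17.6%. The neighbour that came nearest to STEAP4 was ENSG00000228113, an unnamed gene on the plus strand that overlaps STEAP4, with 6.95% of the STEAP4 exon bases shared. ENSG00000228113 averaged 27.9 ± 4.79 normalized counts in rechallenged VCaP-CT, 0.619 ± 0.541 in standing VCaP-CT, 3.54 ± 3.78 in depleted VCaP-T and 25.5 ± 2.59 in standing VCaP-T (SD, n = 3 each). Because counting did not use strand, its reads and those of STEAP4 cannot be told apart where the genes overlap.

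The other neighbours of STEAP4 that passed moved less. SLC25A40, a mitochondrial carrier, had -0.34 after withdrawal and 0.47 after return (adjusted p = 0.00458 and 0.000329), and DBF4, a regulator of DNA replication, fell by 0.40 after withdrawal (adjusted p = 0.00864). ADAM22 and RUNDC3B went the other way after return, with -0.76 and -1.03 (adjusted p = 0.000832 and 0.00917). SRI, which encodes the calcium-binding protein sorcin, passed neither test (0.41 and -0.27, adjusted p = 0.0441 and 0.164), but passed after return without the library that stood apart.

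STEAP1 and STEAP2 share their neighbourhood, and 1847.48 kb lie between STEAP4 and STEAP1. Around STEAP2, 18 genes were counted and 10 tested, of which 3 passed as higher after withdrawal (STEAP1, CFAP69 and FAM237B) and 1 passed in each direction after return. Without the library that stood apart, STEAP1, CFAP69 and CDK14 passed as higher after withdrawal and FAM237B did not, and 1 passed as higher and 4 as lower after return. Over all genes, 6.15% passed as higher and 3.83% as lower after withdrawal, and 7.07% and 7.19% after return. Without that library these shares were 14.4%, 12.6%, 19.0% and 17.6%. CFAP69, a cilium and flagellum gene, passed in both lines and was higher at 0.1 nM T in each, against the direction of STEAP4. Its log2 fold changes were 0.93 after withdrawal and -0.91 after return (adjusted p = 0.000101 and 5.8e-05). FAM237B had 1.5 after withdrawal (adjusted p = 0.00994) at a mean of 8.67 fragments a library, and CLDN12, a claudin of tight junctions, had 0.55 after return (adjusted p = 0.000147). STEAP2-AS1, which overlaps the body of STEAP2 on the other strand, had 0.02 and -0.30 and passed neither test with the hormone (adjusted p = 0.986 and 0.448). Between the lines it was higher in VCaP-CT, at a mean of 17.8 fragments a library. The edgeR values were 1.23 between the standing cultures, 1.21 at 0.1 nM T and 0.93 at 10 nM T (adjusted p = 0.00369, 0.00449 and 0.0264), the last not passing. Of 21 genes near STEAP1B, 7 were tested. RAPGEF5 had -1.04 and 1.18 (adjusted p = 0.00808 and 0.00285) and KLHL7 had -0.41 after return (adjusted p = 0.00895), while EEF1A1P6, a pseudogene copy of a translation factor that overlaps STEAP1B, had 0.42 and -0.16 (adjusted p = 0.0546 and 0.456), values made uncertain by the likeness of that gene's copies. The other genes that overlap STEAP1B, STEAP1B-AS1 and 2 unnamed ones, had no fragment in any library. Of 16 genes near STEAP3, 5 were tested, and DBI, an acyl-CoA binding protein, had 1.26 after return (adjusted p = 0.000846). In the fit without replicate 2 of depleted VCaP-T, 1 gene near STEAP1B passed as higher and 1 as lower after withdrawal and 2 in each direction after return, and near STEAP3 none passed as higher and 1 as lower after withdrawal (DBI), and 2 as higher and 1 as lower after return. In that fit the shares over all genes were 14.4% and 12.6% after withdrawal and 19.0% and 17.6% after return.

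**Figure D4:**
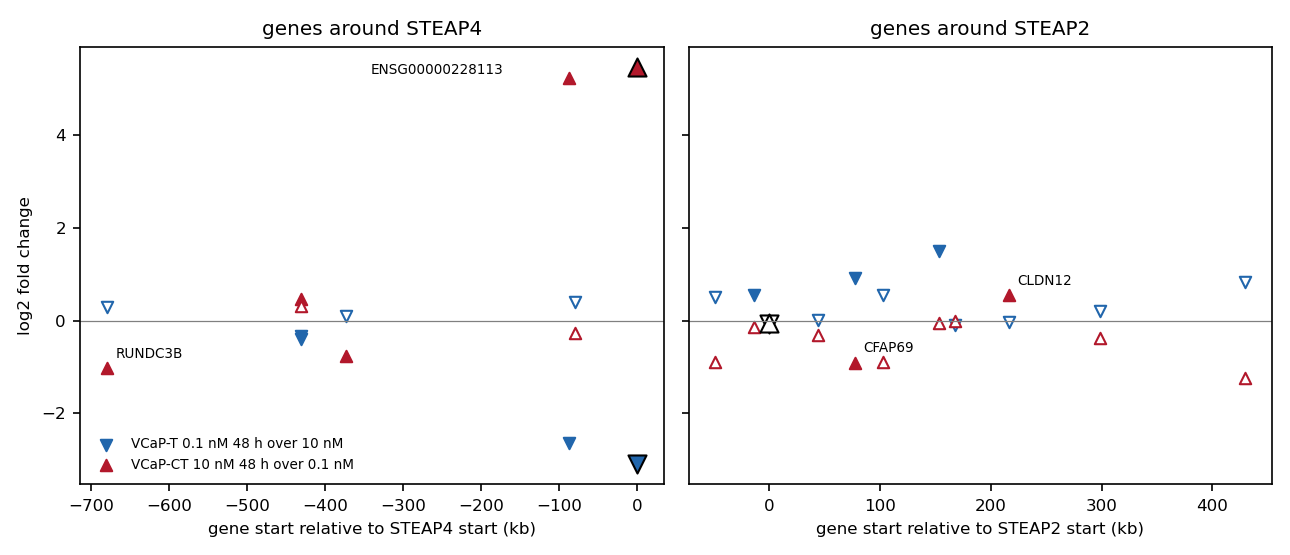
Log2 fold change after withdrawal in VCaP-T (downward triangles) and after return in VCaP-CT (upward triangles) of the tested genes within 500 kb of STEAP4 and of STEAP2 (y axis), by the distance of each gene's start from the start of that member (x axis, kb); the member is the large symbol at 0, and filled symbols have an adjusted p below 0.01. Around STEAP4, the overlapping gene ENSG00000228113 (-2.65 and 5.23) comes near it, and the remaining neighbours stay within 1.03 of 0.

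The other genes that reduce, carry or store iron and copper were followed in 4 lists of 57 tested genes in all. After withdrawal 3 passed as higher and 2 as lower with edgeR, where 6.15% and 3.83% of all genes did. After return 7 passed as higher and 3 as lower, where 7.07% and 7.19% of all genes did. Without the library that stood apart the list counts were 13 and 11 after withdrawal and 14 and 9 after return. In that fit the shares over all genes were 14.4% and 12.6% after withdrawal and 19.0% and 17.6% after return. The list counts and the shares over all genes thus both rose without that library, and whether they rose alike was not tested. With DESeq2 the list counts were 5 and 7 after withdrawal and 8 and 3 after return, for which no share over all genes is given here. Of 12 tested relatives with a ferric reductase or cytochrome b561 fold, 1 passed as higher and none as lower after withdrawal, with a list median of 0.08 against 0.04 over all genes, and 1 passed as higher and 2 as lower after return, with a median of -0.24 against -0.02. When the library that stood apart was left out, 3 passed as higher and 1 as lower after withdrawal, and 2 as higher and 4 as lower after return. CYBRD1, the duodenal cytochrome b that reduces dietary iron, moved against STEAP4, with 1.58 after withdrawal and -1.22 after return (adjusted p = 0.000128 and 0.00375). It averaged 21.6 ± 2.81 normalized counts in rechallenged VCaP-CT, 51.1 ± 11.1 in standing VCaP-CT, 338 ± 31.2 in depleted VCaP-T and 113 ± 28.2 in standing VCaP-T. CYB561, a reductase of secretory vesicles, passed as higher after return (0.48, adjusted p = 0.00068), and FRRS1L, which takes part in glutamate receptor assembly, as lower (-1.33, adjusted p = 0.000753).

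Of 17 tested genes of iron uptake and transport, 1 passed as higher and 2 as lower after withdrawal (list median -0.02), and 3 as higher and 1 as lower after return (list median 0.08). Without the library that stood apart these were 2 and 5 after withdrawal and 3 and 2 after return. Of all genes, 6.15% passed as higher and 3.83% as lower after withdrawal, and 7.07% and 7.19% after return. Without that library these shares were 14.4%, 12.6%, 19.0% and 17.6%. TFRC, the transferrin receptor that brings in the iron STEAP3 is known to reduce, had -1.05 after withdrawal and 0.79 after return (adjusted p = 1.55e-05 and 6.73e-05), and averaged 18439 ± 332, 10668 ± 181, 10173 ± 1342 and 21117 ± 792 normalized counts in rechallenged VCaP-CT, standing VCaP-CT, depleted VCaP-T and standing VCaP-T (SD, n = 3 each). SLC39A14, which carries ferrous iron and zinc, had -0.62 and 0.62 (adjusted p = 0.000719 and 0.00043), and EXOC6, a part of the exocyst, had 0.30 after return (adjusted p = 0.00802). LTF, the secreted iron binder lactoferrin, went the other way with 3.04 and -2.26 (adjusted p = 9.47e-08 and 4.14e-07). TFRC and SLC39A14 passed in the direction of STEAP4 in both comparisons, at smaller fitted values, and EXOC6 did so with DESeq2 or without the library that stood apart, its withdrawal value being -0.21 with edgeR (adjusted p = 0.0495).

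Of 16 tested genes of iron storage, export and regulation, 1 passed as higher after withdrawal (TMPRSS6, a protease that lowers hepcidin, 1.41, adjusted p = 0.00712, with 23.1 normalized counts in depleted VCaP-T and 8.78 in standing VCaP-T), with a list median of 0.13. With DESeq2, FTL and ABCG2 passed after withdrawal and TMPRSS6 did not. After return 2 passed as higher, the porphyrin exporter ABCG2 (3.02, adjusted p = 0.00018) and the heme oxygenase HMOX1 (1.03, adjusted p = 0.000645), with a list median of -0.01. Of 12 tested genes of copper handling, none passed after withdrawal with edgeR, where the list median was 0.21. An unadjusted p below 0.05 was found for 6 of them, and 3 passed as lower with DESeq2 (ATP7B, SCO1 and SLC31A1). No share over all genes is given here for these last 2 counts, so they cannot be set against the background. SLC31A1, the copper importer, had 0.72 after return (adjusted p = 0.000454), where the median was 0.15. Without the library that stood apart, 7 storage genes passed as higher and 1 as lower after withdrawal, and 1 copper gene as higher and 4 as lower, while after return 6 copper genes passed as higher and 3 as lower. The shares over all genes, higher and lower, were 6.15% and 3.83% after withdrawal and 7.07% and 7.19% after return. Without that library these shares were 14.4%, 12.6%, 19.0% and 17.6%. The response differed between the lines past the threshold for none of the 57 tested genes with edgeR or DESeq2. With edgeR, 0.804% of all genes passed as higher and 0.162% as lower for this difference. With edgeR and DESeq2, 10 and 13 of the 57 had an unadjusted p below 0.05. No share over all genes is given here for that rule or for DESeq2. Without the library that stood apart, 5 of the 57 passed (LTF, SLC39A8, FTL, HMOX1 and SLC31A1). In that fit 5.62% of all genes passed as higher and 1.77% as lower. Between the standing cultures, 6 storage genes passed as lower in VCaP-CT and 2 as higher (FBXL5 and NCOA4), with a list median of -0.25, and 15.7% of all genes passed as lower and 14.8% as higher. SLC40A1, the iron exporter ferroportin, and FTH1, the ferritin heavy chain, were lower in VCaP-CT, with means in VCaP-CT and in VCaP-T of 241 ± 7.37 against 600.0 ± 42.7 and 1611 ± 114 against 3183 ± 432 normalized counts (adjusted p = 7.58e-07 and 0.00029). FTH1 has near-identical pseudogenes that can take its reads, so its value is uncertain.

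**Figure D5:**
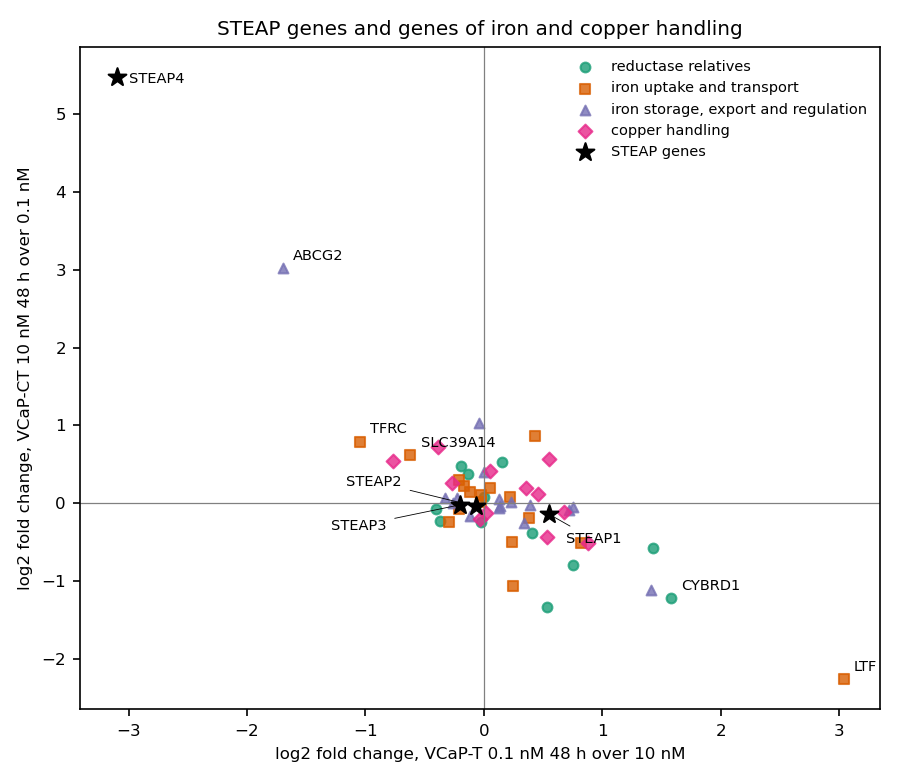
Log2 fold change after return of testosterone in VCaP-CT (y axis) against that after withdrawal in VCaP-T (x axis) for the 4 tested STEAP genes (stars) and the tested genes of the 4 lists (coloured symbols by list). STEAP4 lies alone at the top left (-3.10, 5.48), ABCG2 is the next in that direction and LTF the farthest in the other, and STEAP1, STEAP2 and STEAP3 lie near the origin.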

How the data were processed

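The authors prepared poly(A) RNA libraries (TruSeq Stranded mRNA), sequenced paired reads and ran STAR 2.5.4b on GRCh38. Fragments were assigned to Gencode genes by featureCounts 1.6.2, strand not being used. The deposited values are raw counts with exon lengths (another quantity, in bases), in 12 libraries of 4 groups. The authors' table normalized with DESeq2 was not used here.

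Counts were scaled by TMM and tested in edgeR 4.0.16 (R 4.3.3) with the quasi-likelihood test in a single model of the 4 groups, filterByExpr and Benjamini-Hochberg adjustment over 19162 genes. The test was also run on simulated counts, the outcome of which is not reported here. Symbols matched 57754 of 58381 identifiers. Named besides the members were the 3 genes most like a member whose group means spanned over 1 on the log2 scale, neighbours within 500 kb that passed or overlap, up to 3 genes per list and direction, and 3 reference genes. Members and lists were chosen with earlier results of these data known. Alternatives were DESeq2 1.42.0, other scalings and filters, fewer libraries and a replicate block. Promoters come from RefSeq. Some items of the lists and motif searches are not reported here.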

Additional observations from a re-analysis of the deposited data

Results flagged for a closer look

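For STEAP4 and 2 reference genes the response to 10 nM over 0.1 nM T differed between the lines by a test of the difference itself. The response in VCaP-CT was larger than that in VCaP-T by 2.38 on the log2 scale for STEAP4 (SE 0.17, edgeR adjusted p = 2.93e-05), 2.19 for KLK3 (SE 0.15, adjusted p = 2.08e-05) and 0.62 for TMPRSS2 (SE 0.09, adjusted p = 0.00343). C22orf42 read 3.37, but it was chosen for the likeness of its profile to that of STEAP4, so this value is a description. The duration of exposure differed between the lines as well, and its part cannot be told apart from that of the line.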

How the results depend on the processing

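STEAP4 kept its direction and its call in the withdrawal, the return, the comparison of the standing cultures, that of the lines at 0.1 nM T and the difference between the responses, under the alternatives tried. With single libraries left out its log2 values were -3.19 to -2.97, 5.42 to 5.57, -5.04 to -4.89 (standing cultures), -1.98 to -1.76 (0.1 nM T) and 2.29 to 2.51 (difference), and 0.48 to 0.58 between the lines at 10 nM T, where it was 0.42 by library size alone. That scaling shifted all log2 fold changes at 10 nM T by -0.10 and lowered STEAP1 in rechallenged VCaP-CT to 5780.2 ± 240.5 normalized counts. The STEAP1 withdrawal value was 0.53 in 6 libraries (adjusted p = 0.103), 0.54 with a replicate block (adjusted p = 0.0144) and 0.36 to 0.65 with libraries left out, and at 10 nM T STEAP1 ranged from 0.58 to 0.65. STEAP2 passed between the lines in fits of 6 libraries (0.37 between the standing cultures, 0.34 at 10 nM T) and at 0.1 nM T with DESeq2 (0.47) and without a low-count filter (0.48). With libraries left out STEAP2 ranged from 0.37 to 0.42 (standing cultures), 0.29 to 0.58 (0.1 nM T) and 0.29 to 0.39 (10 nM T), STEAP1 from 0.092 to 0.38 and STEAP3 from -0.40 to -0.27 at 0.1 nM T. Signs of values that did not pass turned with libraries left out: STEAP2 from -0.18 to 0.10 (withdrawal), -0.10 to 0.003 (return) and -0.22 to 0.062 (difference), and STEAP3 from -0.094 to 0.032 (return), 0.008 and 0.012 among them. Genes called numbered 602 after withdrawal against 395 with a mean count of at least 50 and 219 in 6 libraries, where fewer genes or libraries entered; 2428 against 1570 in the standing cultures and 2357 against 1487 at 0.1 nM T with that filter; and 108 for the difference against 210 with DESeq2, 172 without a filter, 64 with a replicate block and 55 to 234 with libraries left out. The cause of these shifts was not tested. No sign of pairing by replicate number was seen: 0 of 18 pairs of deviations had a correlation over 0.1 (-0.168 to 0.055). Counting noise can hide a shared origin in such correlations, so they do not show that the samples are unpaired.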
